A study of Homo sapiens with 12 samples.

Results

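The mitochondrial ribosomal protein genes were examined in C4.2B cells, an established human line of castration-resistant prostate cancer. Members were all genes whose symbol in the count files was MRPL or MRPS followed by a number and, where present, a letter from A to C. This rule found 76 of the 23228 genes listed, 47 named for the large subunit (MRPL) and 29 named for the small subunit (MRPS). PolyA RNA was sequenced from 12 libraries in 4 arms, with 3 libraries (A, B and C) in each. All arms were treated for 24 hours in medium with 10% charcoal-stripped serum. DMSO was the vehicle arm. GDC received 0.5 µM of GDC-0941, an inhibitor of class I PI3K. GSK received GSK126 at 5 µM, which inhibits EZH2, the methyltransferase for lysine 27 of histone H3, after 6 days of pretreatment with the same agent. COMBO received both agents at these doses, with the same pretreatment. Because the pretreatment was given in the GSK and COMBO arms, the agent and the longer exposure cannot be told apart. The libraries came from triplicate plates of a single line, so the p-values measure the spread between plates.

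Mitochondrial ribosomes translate the respiratory chain subunits that are encoded in mitochondrial DNA. Their ribosomal RNAs are made inside the organelle, but all of their proteins are encoded in the nucleus, translated in the cytosol and imported. Many of these proteins descend from bacterial ribosomal proteins, and the others are found only in mitochondria. The large subunit forms peptide bonds and releases the new chain through an exit tunnel, and the small subunit binds messenger RNA and decodes it. A transcript level does not measure the amount of protein or of assembled ribosome.

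Sequence around the start of each gene was inspected first, because the members changed in the same direction in COMBO (values follow). RefSeq windows from 250 bases before to 50 after the start (GRCh38.p14) were matched by symbol for 67 of the 76 members. Letters were searched on both strands. The ETS core CCGGAAG, which GABP binds, was in 28 windows (41.8%), against 10.7% of all 27305 windows and 18.4% of the 9661 windows of tested genes. Letters bound by YY1, AAGATGGC, were in 20 windows (29.9%), against 3.03% of all windows and 5.40% of those of tested genes. The NRF1 core GCATGCGC was in 6 (8.96%), against 3.27% and 5.50%. The E-box CACGTG, which MYC binds, was in 6 (8.96%), against 7.43% and 10.2%. The GC box GGGCGG was in 41 (61.2%), against 44.6% and 69.5%, and CCAAT was in 20 (29.9%), against 35.7% and 36.5%. These letters were also counted in 70 windows of cytosolic ribosomal protein genes. The ETS core was in 32.9% of them, the YY1 letters in 10.0% and the NRF1 core in 4.29%. The E-box was in 5.71%, the GC box in 52.9% and CCAAT in 32.9%. A match describes letters in a window and does not show binding.

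The windows of 30 bases below show the ETS letters in capitals for members with the larger changes in COMBO (MRPS12, MRPL3, MRPL47) and for members with the smaller ones (MRPL54, MRPL43). They are written 5′ to 3′ along the gene, so letters on the opposite strand appear as CTTCCGG.
MRPS12, chr19:38930928-38930957, plus strand: acggatagcgcCCGGAAGaggctagaagct
MRPL3, chr3:131502985-131503014, minus strand: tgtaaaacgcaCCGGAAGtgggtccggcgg
MRPL47, chr3:179604659-179604688, minus strand: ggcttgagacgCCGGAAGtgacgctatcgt
MRPL54, chr19:3762650-3762679, plus strand: gccactgacgtCTTCCGGaaacgtgcactt
MRPL43, chr10:100987497-100987526, minus strand: tcgtcccggaaCCGGAAGcctcgaggttta
The 37 ETS matches had a median position of -22 from the start. Of the members with a window and a test, the ETS letters were in 7 of the 24 whose log2 fold change in COMBO was below -1 and in 21 of the 42 others.

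The YY1 letters lay mostly just after the start, with 15 of 21 matches downstream of it and a median position of 10. In 12 of the 20 members the ATG inside AAGATGGC was an annotated start codon in GENCODE 44, as in these 5 windows, with the YY1 letters in capitals.
MRPL50, chr9:101398577-101398606, minus strand: ggatctcatcgAAGATGGCggcgcgatctg
MRPS30, chr5:44808949-44808978, plus strand: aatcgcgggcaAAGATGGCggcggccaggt
MRPS7, chr17:75261887-75261916, plus strand: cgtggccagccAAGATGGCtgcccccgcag
MRPL45, chr17:38297170-38297199, plus strand: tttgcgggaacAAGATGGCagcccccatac
MRPS18B, chr6:30617852-30617881, plus strand: gggcgtacgtcAAGATGGCggcgtctgtat
These letters were in 5 of the 24 members below -1 in COMBO and in 14 of the 42 others, and the genes shown span both ends of the range of change.

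The libraries held 8785218 to 44437751 counts in genes. Levels are in CPM, counts scaled to a common library size (edgeR with TMM factors). Where no count was seen, up to 3 counts remained possible, equal to 0.0675 to 0.341 CPM by library, for counting error only. All 9 prostate luminal markers were expressed, and their summed level also moved with the arms. The sum was 3328 to 3549 CPM per library for DMSO and 4899.8 to 5037 for GDC. It was 4511 to 4914 for GSK and 5595 to 6033 for COMBO. Single markers differed in direction. KLK3 had a mean of 597 CPM in DMSO and 1843 in COMBO, whereas HOXB13 had 484 and 304, and KRT18 had 322 and 320. The 8 markers of blood, endothelial and fibroblast cells summed to 12.8 to 14.6 CPM per DMSO library, with ranges of 15.7 to 20.6 for GDC, 30.4 to 42.7 for GSK and 33.5 to 51.0 for COMBO. COL1A1 and VWF held most of these counts, and CD3E was at 0. Reads outside genes made up 14.2%, 15.6%, 18.8% and 21.8% of all reads in DMSO, GDC, GSK and COMBO. Their part in the results below was not tested. In bulk RNA, fewer cells of a kind and less RNA per cell cannot be told apart.

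Of the 76 members, 75 passed the filter on low counts. MRPS24, a small subunit protein with a bacterial counterpart, did not. It had 5 counts over the DMSO libraries, 1 over GDC, 0 over GSK and 4 over COMBO, and its exons overlap the read-through gene URGCP-MRPS24. In DMSO the level per length, as CPM per kilobase of annotated exon (RPKM), ranged from 0.0441 for MRPS24 to 177 for MRPL41, with a median of 31.0. MRPL3 (152), MRPL51 (147) and MRPL12 (146 RPKM) followed MRPL41. In the annotation 35 members have a named pseudogene and 20 have exons that overlap another counted gene, so part of their reads is uncertain.

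The transcripts of the mitochondrial ribosome were lower in each inhibitor arm and lowest in COMBO. Summed over members, DMSO held 7448 ± 192 CPM, GDC 6607 ± 110, GSK 4979 ± 53.2 and COMBO 4032 ± 94.3 (SD, n = 3). GDC was thus at 88.7% of DMSO, GSK at 66.8% and COMBO at 54.1%. The 4 arms did not overlap. With library totals in place of TMM scaling, COMBO was at 62.5%. The sum over cytosolic ribosomal protein genes, whose products build the ribosomes outside mitochondria, was 112%, 109% and 107% of DMSO in GDC, GSK and COMBO.

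**Figure D1:**
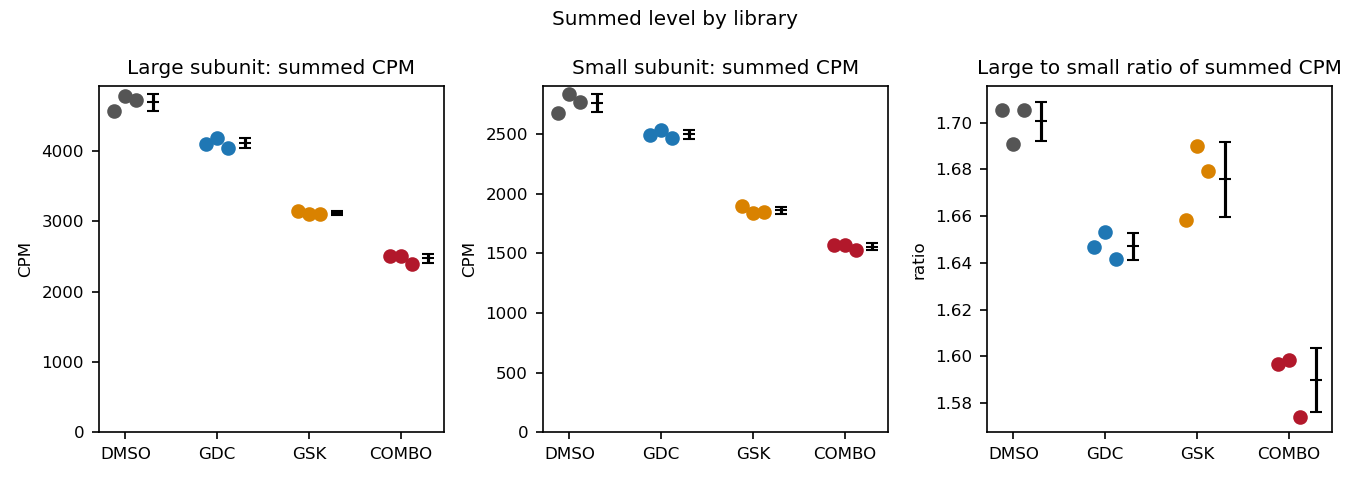
Summed CPM per library of the members named for the large subunit (left) and the small subunit (middle), and the ratio of these sums (right, axis not from 0); points are libraries, bars are mean ± SD (n = 3). Both sums step down from DMSO through GDC and GSK to COMBO, and the ratio is 1.57 to 1.60 in COMBO and 1.69 to 1.71 in DMSO.

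The first comparison asked what PI3K inhibition alone did. In GDC 46 of 75 members fell, against 20.0% of all tested genes called lower, and 1 rose, against 20.0% called higher (edgeR quasi-likelihood test, adjusted p under 0.05). The median log2 fold change was -0.19, compared with 0.02 over all tested genes, and ranged from -0.43 to 0.18. All GDC libraries were below all DMSO libraries for 49 members (65.3%), compared with 24.8% of all tested genes. The changes were small, and no member reached a log2 fold change of -1. Of all 14189 tested genes, 54 were below -1.

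In GSK 66 of 75 members fell, against 35.7% of tested genes called lower, and 0 rose, against 40.0% called higher. At an unadjusted p under 0.05, 0 members were higher by edgeR and 0 by DESeq2. The median was -0.52, against 0.06 over all tested genes, and 2 members, MRPL18 and MRPL3, were below -1. Of all 14189 tested genes, 836 were below -1. The 9 members that did not pass the test were MRPL43, MRPS6, MRPL53, MRPS21, MRPL54, MRPS14, MRPS33, MRPL28 and MRPL33.

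In COMBO all 75 tested members fell, against 39.2% of tested genes called lower, and 0 rose, against 43.3% called higher. At an unadjusted p under 0.05, 0 members were higher by edgeR and 0 by DESeq2. The median was -0.90, against 0.05 over all tested genes, and the range ran from -1.52 for MRPS25 to -0.17 for MRPS14. A log2 fold change below -1 was found in 27 of the 75 members, against 1592 of all 14189 tested genes. Besides MRPS14 and MRPL10, the smallest changes were those of MRPL43 (-0.22, adjusted p = 0.00446), MRPL28 (-0.23, adjusted p = 0.000400) and MRPL54 (-0.24, adjusted p = 0.00306), each called at this threshold. For 61 members (81.3%) the means stood in the order DMSO, GDC, GSK, COMBO from high to low, an order held by 23.2% of all tested genes. Scaling by library totals moved the median of all genes up by 0.15 in GSK and 0.21 in COMBO on the log2 scale, and changes are given relative to TMM. With library totals 66 members fell in COMBO, 62 in GSK and 36 in GDC. MRPL28, MRPL33 and MRPS33 were then called higher in GSK, and MRPS14 in GDC. The median over all tested genes was 0.05 in GDC, 0.21 in GSK and 0.26 in COMBO. Shares of all tested genes called under this scaling are not given here. With these totals 11 members were above 0 in GDC, 10 in GSK and 2 in COMBO. The 3 comparisons share the DMSO libraries.

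**Figure D2:**
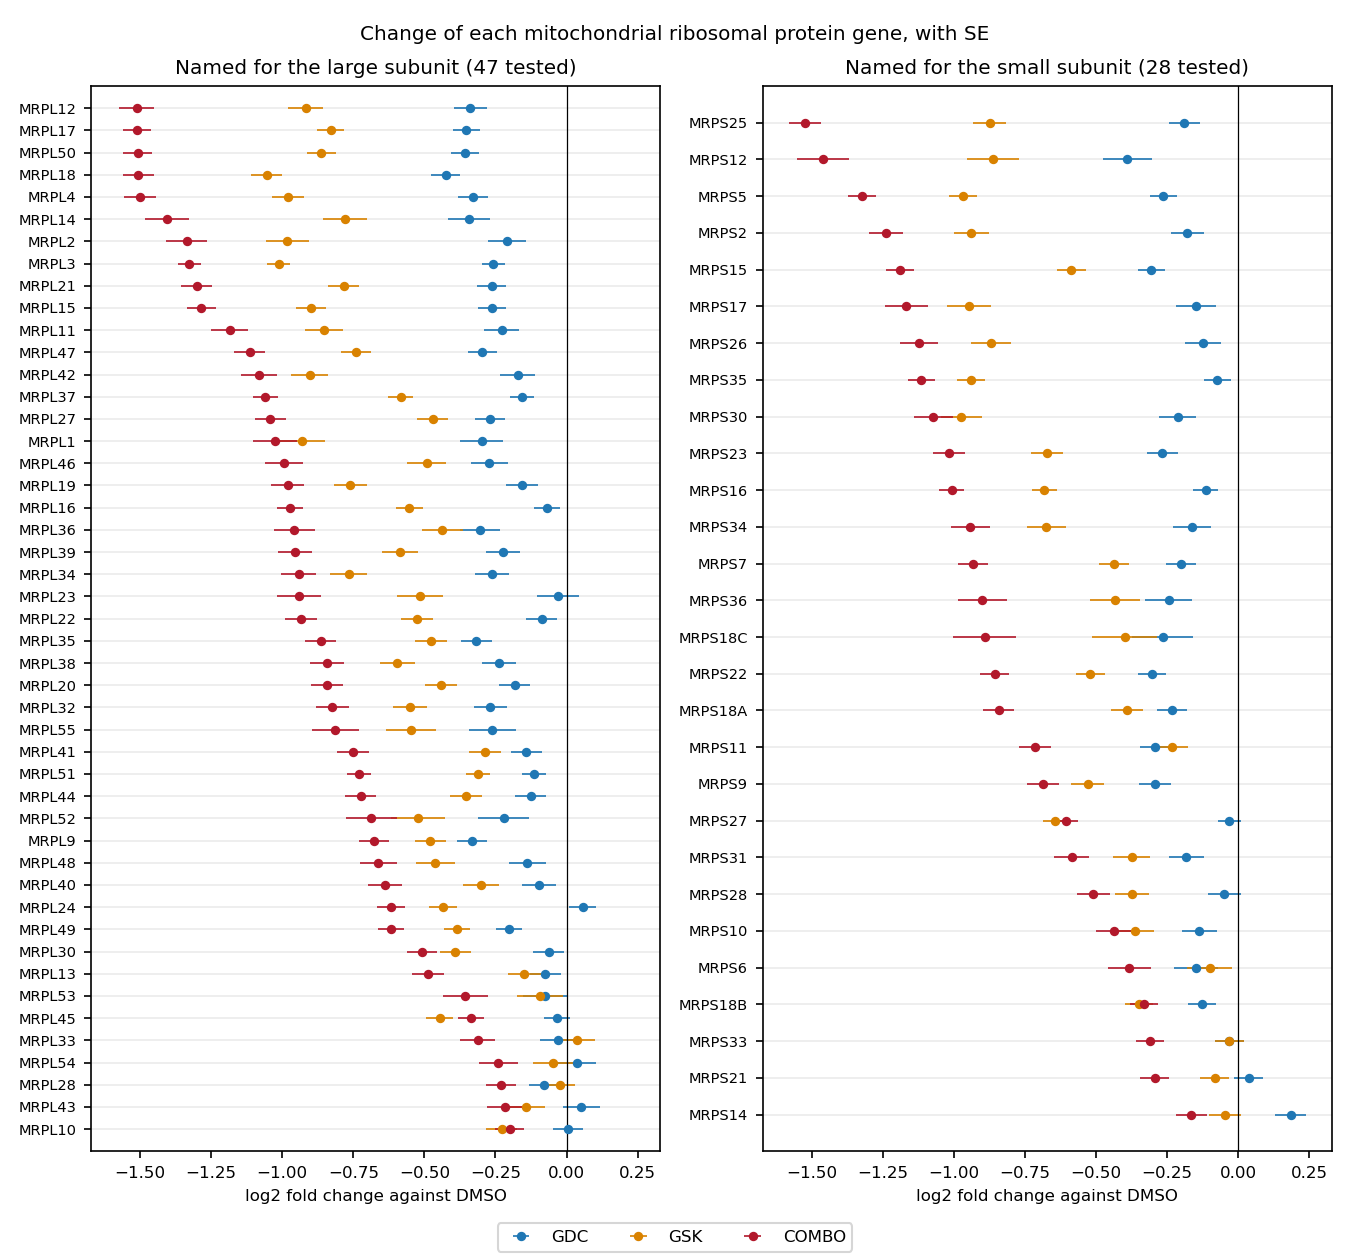
Log2 fold change against DMSO of the 75 tested members, by the subunit in the name, ordered by the change in COMBO; points are edgeR estimates and bars are SE. All COMBO points lie below 0, from -1.52 to -0.17, and GDC points lie between -0.43 and 0.18.

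Among the proteins of the factor-binding stalk, which recruits translation factors to the large subunit, the changes were unequal. MRPL12 (chromosome 17, 81703367 to 81707517), the counterpart of the bacterial stalk protein L7/L12, was at 133, 157 and 153 CPM in DMSO libraries A, B and C. GDC had 114, 123 and 115 CPM, GSK had 84.7, 75.4 and 76.4, and COMBO had 52.5, 51.7 and 52.1. No library of an arm overlapped another arm. The log2 fold change in COMBO was -1.51 (SE 0.061, adjusted p = 6.75e-15), a level of 0.351 of DMSO. MRPL10 (chromosome 17, 47823272 to 47831541), which anchors MRPL12 to the ribosome, was at 47.5, 50.6 and 50.8 CPM in DMSO, whereas COMBO had 44.4, 43.3 and 42.6. Its COMBO value was -0.20 (SE 0.052, adjusted p = 0.00142), and with library totals it was 0.0075 (adjusted p = 0.898), so its direction depended on scaling. MRPL11, at the base of the stalk, fell by 1.18 on the log2 scale in COMBO (SE 0.065, adjusted p = 8.97e-13), and its exons overlap PELI3.

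Among the large subunit proteins with bacterial counterparts, values in COMBO ran from -1.51 to -0.20. MRPL3 (chromosome 3, 131462212 to 131502983), the counterpart of the bacterial L3 near the site of peptide bond formation, had the highest CPM of all members. DMSO had 413, 412 and 417 CPM, GDC had 337, 350.4 and 352, GSK had 204, 208 and 204, and COMBO had 168, 169 and 158. The arms did not overlap, and the log2 fold change was -0.26 in GDC, -1.01 in GSK and -1.33 in COMBO (SE 0.041, adjusted p = 9.58e-17). MRPL3 has 1 named pseudogene. MRPL4, whose bacterial counterpart lines the exit tunnel, changed by -0.33, -0.98 and -1.50, and MRPL2, a core protein with 1 named pseudogene and exons that overlap KLC4, by -0.21, -0.98 and -1.34.

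MRPL17 (chromosome 11, 6680385 to 6683340) and MRPL18 (chromosome 6, 159789812 to 159798436) have neither a named pseudogene nor an overlap. For MRPL17, DMSO had 121, 126 and 124 CPM and GDC had 96.9, 96.7 and 97.8. GSK had 72.0, 68.8 and 68.7, and COMBO had 46.0, 43.0 and 41.6. The COMBO log2 fold change of MRPL17 was -1.51 (SE 0.049, adjusted p = 2.37e-16). For MRPL18, a protein of the central protuberance that faces the small subunit, DMSO had 122, 129 and 125 CPM, GDC had 92.5, 95.7 and 91.7, GSK had 61.2, 60.0 and 59.7, and COMBO had 46.0, 45.8 and 40.0. It had the most negative value of all members in GDC (-0.43, adjusted p = 2.73e-06), and likewise in GSK (-1.06, adjusted p = 8.59e-13). For both genes each arm stood clear of the others.

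MRPL50 and MRPL14 moved in the same order. MRPL50, a large subunit protein found only in mitochondria that has 3 named pseudogenes, changed by -0.36 in GDC, -0.86 in GSK and -1.51 in COMBO. MRPL14, which has a bacterial counterpart, changed by -0.34, -0.78 and -1.41. At the exit of the tunnel, where new chains reach the inner membrane, all 5 members fell in GSK and in COMBO (35.7% and 39.2% of all tested genes were called lower), and 1 of 5 fell in GDC (20.0%). MRPL45, which binds the inner membrane at that exit, was at -0.03 in GDC (adjusted p = 0.589) and fell in GSK (-0.45) and COMBO (-0.34). All 6 members of the central protuberance fell in GSK and COMBO, and 4 of 6 fell in GDC, beside the same shares of all tested genes.

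In the small subunit, MRPS25 and MRPS12 had the most negative values in COMBO. MRPS25 (chromosome 3, 15009611 to 15065339), is found only in mitochondria. DMSO had 98.0, 99.7 and 103 CPM, GDC had 89.2, 86.9 and 88.8, GSK had 54.8, 58.6 and 51.2, and COMBO had 37.4, 32.8 and 35.0. The arms did not overlap. Its log2 fold change was -0.19 in GDC (adjusted p = 0.00876), -0.87 in GSK and -1.52 in COMBO (SE 0.058, adjusted p = 2.43e-15), and its exons overlap NR2C2. MRPS12 (chromosome 19, 38930944 to 38933168), the counterpart of the S12 protein of the decoding centre, was at 41.9, 53.2 and 51.8 CPM in DMSO, and COMBO had 18.3, 17.8 and 18.1. It changed by -0.39 in GDC, -0.86 in GSK and -1.46 in COMBO (SE 0.091, adjusted p = 7.10e-12).

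MRPS17 and MRPS35 did not pass the test in GDC (-0.15, adjusted p = 0.102, and -0.07, adjusted p = 0.224), but fell in GSK (-0.95 and -0.94) and COMBO (-1.17 and -1.11). MRPL9, a large subunit protein with a bacterial counterpart, changed by -0.33, -0.48 and -0.68 in the 3 arms. MRPS17 and MRPS35 have 4 and 2 named pseudogenes, and MRPL9 has 1 and overlaps OAZ3.

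Other small subunit proteins with bacterial counterparts covered a wide range in COMBO. MRPS5, whose counterpart lies at the messenger RNA entrance, changed by -0.26, -0.97 and -1.32 in GDC, GSK and COMBO. MRPS7, which organises the head of the subunit, changed by -0.20, -0.44 and -0.93, and its exons overlap GGA3 and MIF4GD. MRPS14 was the member that rose in GDC. DMSO had 59.6, 55.7 and 57.0 CPM and GDC had 65.1, 65.4 and 64.7, with no overlap between the arms (0.18 on the log2 scale, SE 0.054, adjusted p = 0.0104). That call was lost with DESeq2, with no filter on low counts, without DMSO B (0.13) or C (0.15) and without GDC A (0.15), B (0.14) or C (0.15). MRPS14 was at 48.2, 54.6 and 49.8 CPM in COMBO (-0.17, adjusted p = 0.00867), and its exons overlap CACYBP.

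**Figure D3:**
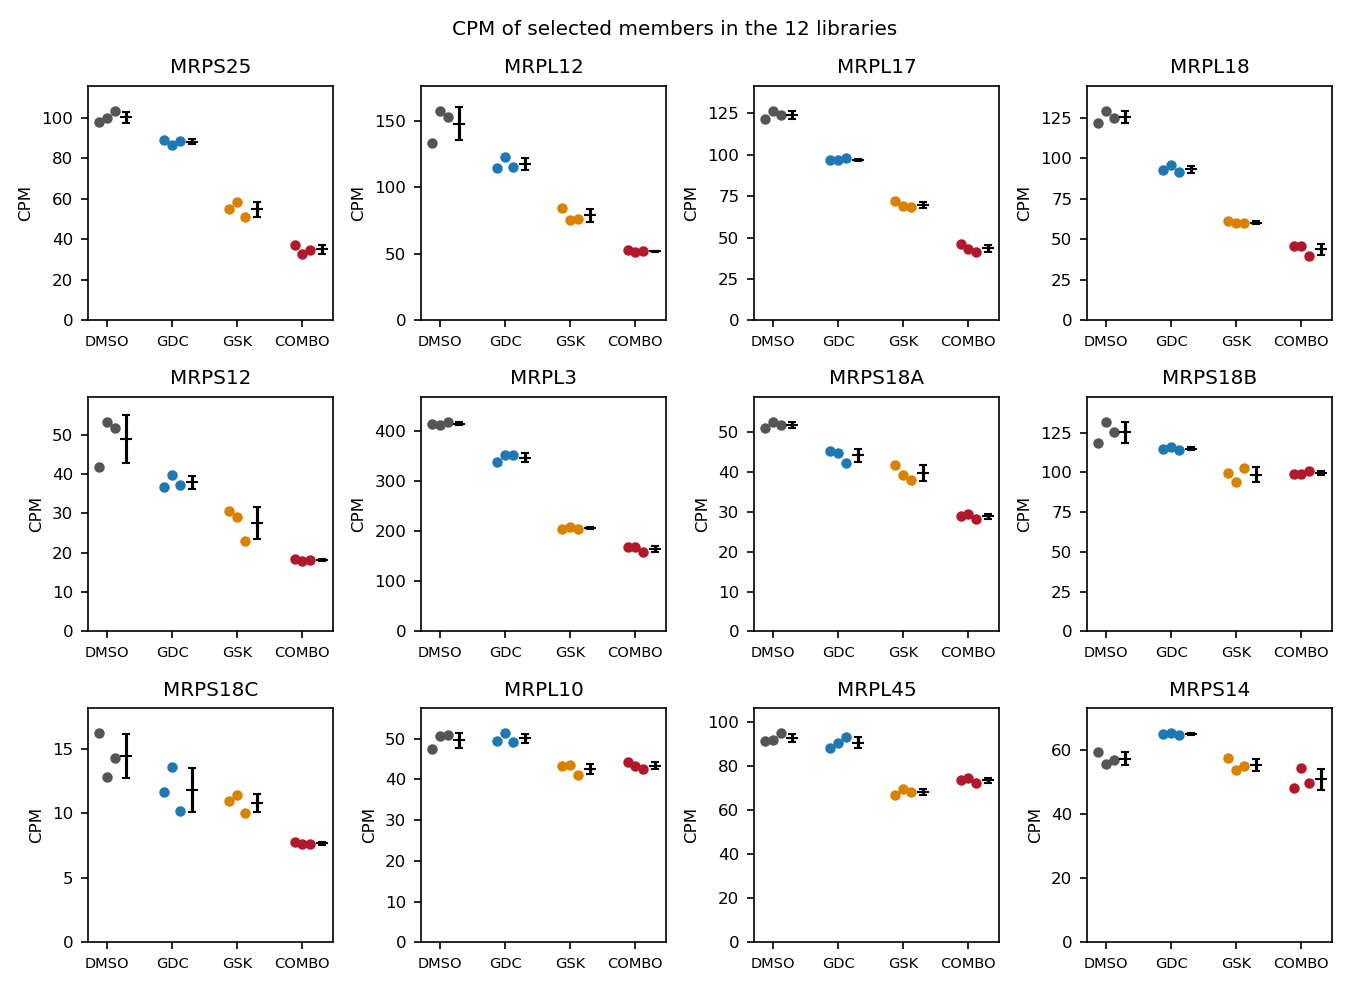
CPM of 12 members in each library by arm, with each axis from 0; points are libraries A, B and C and bars are mean ± SD (n = 3). MRPS25, MRPL12, MRPL17 and MRPL18 step down in every arm, while MRPL10 stays between 41.2 and 51.4 CPM in all libraries.

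The MRPS18 genes encode related proteins that descend from bacterial S18 and sit at different places. MRPS18C, which takes the bacterial position in the small subunit, had 14.4 ± 1.70 CPM in DMSO, against 7.67 ± 0.098 for COMBO (SD, n = 3), a change of -0.89 (SE 0.11, adjusted p = 2.99e-07). MRPS18A, which is built into the large subunit despite its name, had 51.9 ± 0.717 CPM in DMSO, against 28.9 ± 0.600 for COMBO, a change of -0.84 (SE 0.055, adjusted p = 1.62e-11). MRPS18B, a small subunit protein, had 125 ± 6.58 CPM in DMSO, against 98.6 ± 4.54 for GSK and 99.7 ± 1.23 for COMBO, a change of -0.33 in COMBO (SE 0.049, adjusted p = 2.99e-06). The GSK and COMBO libraries of MRPS18B overlapped. In the classes by origin used further on, MRPS18A and MRPS18B count as found only in mitochondria and MRPS18C as the bacterial counterpart. MRPS30, also a protein of the large subunit by structure, changed by -0.21, -0.97 and -1.07 in GDC, GSK and COMBO. MRPS36, now known as a subunit of the oxoglutarate dehydrogenase complex, changed by -0.24, -0.43 and -0.90 and has 5 named pseudogenes.

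The large and small subunit genes were compared next, and in the 3 arms against DMSO their median changes lay close together. In GDC 30 of 47 large subunit members fell and 16 of 28 small subunit members fell, beside 20.0% of all tested genes called lower. In GSK these counts were 42 of 47 and 24 of 28, beside 35.7%. The median log2 fold changes of the large and small groups were -0.21 and -0.18 for GDC, -0.52 and -0.52 for GSK, and -0.93 and -0.90 for COMBO. The difference between the group medians was below 0.067 in each arm, and stayed so when MRPS18A and MRPS30 were moved to the large subunit and MRPS36 was left out. That value is the SD between libraries of the large minus small difference in median log2 level. It does not measure the spread of a difference between fold changes, and no test was made. For COMBO against GSK the medians were -0.35 and -0.28, a difference slightly above that SD. Sums of CPM weight the abundant genes more and gave another picture. The ratio of the large to the small sum, which no scaling can change, was 1.70 ± 0.0083 for DMSO, 1.65 ± 0.0057 for GDC, 1.68 ± 0.016 for GSK and 1.59 ± 0.014 for COMBO (SD, n = 3, no test), and the COMBO libraries were below all others. By structure the ratio was 1.85 ± 0.011 for DMSO and 1.72 ± 0.018 for COMBO. Without MRPL3 it was 1.55 ± 0.0046 for DMSO, 1.51 ± 0.0084 for GDC, 1.57 ± 0.013 for GSK and 1.48 ± 0.012 for COMBO. COMBO stayed lowest, and the mean of GSK moved above that of DMSO with libraries that overlapped.

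Members with a bacterial counterpart had a median log2 fold change of -0.94 in COMBO (45 tested), and members found only in mitochondria had -0.75 (29 tested). For GDC the medians were -0.26 and -0.16, and for GSK -0.55 and -0.49. These differences were larger than 0.046, the SD between libraries of the class difference in median log2 level. That SD does not measure the spread of fold changes, and no test was made of the differences. They were not seen in each subunit. Among small subunit members by structure, the bacterial and mitochondria-only medians were -0.89 and -0.90 in COMBO and -0.44 and -0.66 in GSK, the latter in the opposite order, while large subunit members had -0.96 and -0.73 in COMBO.

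Adding an agent to the other was examined next. Compared with GDC, COMBO was lower for all 75 members, against 38.0% of tested genes called lower, and higher for 0, against 37.9% called higher, with a median of -0.66. At an unadjusted p under 0.05, 0 members were higher by edgeR and 0 by DESeq2. The values ran from -1.33 for MRPS25 to -0.15 for MRPL28. Compared with GSK, COMBO was lower for 63 members, against 26.9% of tested genes called lower, and higher for 0, against 19.0% called higher, with a median of -0.33. At an unadjusted p under 0.05, 1 member was higher by edgeR and 0 by DESeq2. MRPL17 (-0.68), MRPS25 (-0.65) and MRPL50 (-0.65) had the most negative values. All COMBO libraries were below all GSK libraries for 61 members, an order held by 29.9% of all tested genes.

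COMBO was not the lowest arm for 4 members. The difference from GSK was 0.11 for MRPL45 (95% interval 0.01 to 0.20, adjusted p = 0.0721), 0.04 for MRPS27 (-0.04 to 0.12), 0.03 for MRPL10 (-0.08 to 0.14) and 0.02 for MRPS18B (-0.08 to 0.12). With library totals MRPL45 was called higher (0.16, adjusted p = 0.00864). MRPL45 was at 66.8, 69.5 and 68.2 CPM in GSK and at 73.5, 74.8 and 72.3 in COMBO, with no overlap, and has 2 named pseudogenes. MRPS27, a small subunit protein found only in mitochondria, was at 187, 181 and 177 CPM in GSK and 188, 187 and 185 in COMBO, where the arms overlapped.

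The interaction term, the COMBO effect after subtracting both single-agent effects, compared the combined change with the 2 single-agent changes added together on the log2 scale. It was negative and past the threshold for 22 of 75 members (29.3%), against 16.5% of all tested genes, and positive for 0, against 4.86%. At an unadjusted p under 0.05, 1 member was higher by edgeR and 3 by DESeq2. The median was -0.14, against -0.06 over all tested genes. This count was fragile. It was 14 with DESeq2 size factors, 13 with DESeq2, 13 when a mean of 1 CPM was required and 4 with no filter on low counts. Leaving out DMSO A, B or C gave 6, 12 and 6. Leaving out GDC A, B or C gave 6, 5 and 10, leaving out GSK A or B gave 7 and 5, and leaving out COMBO A gave 11. Every fit without a library lay between 5 and 21, below the 22 of the main fit. These fits also repeated the filter and the scaling, so a lower count cannot be put down to the library alone.

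MRPS25 had the most negative interaction, -0.46 (SE 0.083, adjusted p = 0.000448), followed by MRPL23 (-0.40, SE 0.11, adjusted p = 0.0158) and MRPL16 (-0.35, SE 0.067, adjusted p = 0.000753). MRPS25 and MRPL16 kept their call without each library in turn, under each scaling and filter and under DESeq2, and lost it only where an absolute log2 value of 1 was required. MRPL16, whose bacterial counterpart lies close to the transfer RNA sites, had 98.7 ± 1.40 CPM in DMSO, 94.3 ± 0.905 for GDC, 67.2 ± 2.31 for GSK and 50.4 ± 1.17 for COMBO (SD, n = 3), with no overlap between arms. Its GDC value was -0.07 (adjusted p = 0.247) and COMBO was below GSK by 0.42 on the log2 scale. MRPL23, a protein of the tunnel exit, lost its call in 9 of the 12 fits without a library. MRPL18 and MRPL3, with the most negative values in GSK, had interactions of -0.03 (95% interval -0.18 to 0.13) and -0.06 (-0.17 to 0.06).

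**Figure D4:**
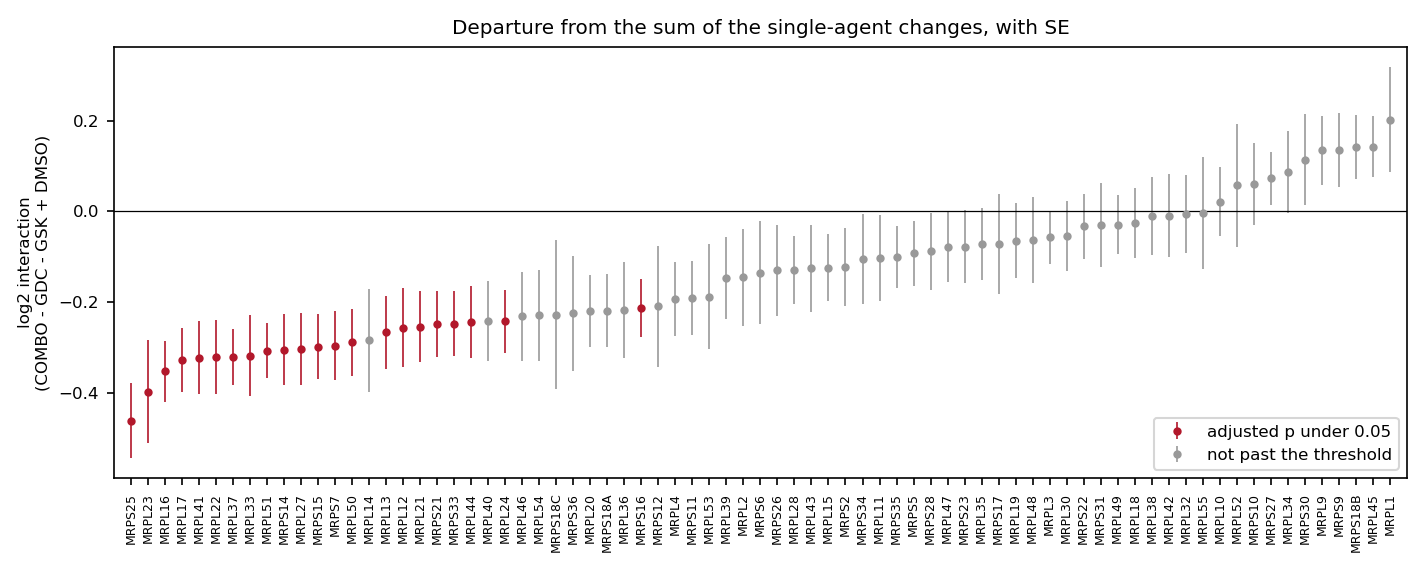
Interaction of the 75 tested members on the log2 scale, ordered by value; points are edgeR estimates, bars are SE, and red marks an adjusted p under 0.05. The red points are all negative, from -0.46 for MRPS25 to -0.21 for MRPS16.

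Other genes of mitochondrial translation and of mitochondrial DNA were counted by list, beside 20.0%, 35.7% and 39.2% of all tested genes called lower in GDC, GSK and COMBO and 20.0%, 40.0% and 43.3% called higher. Of 7 ribosomal proteins with names outside the rule, 3 fell in GDC, 7 in GSK and 7 in COMBO. In COMBO these included GADD45GIP1, a large subunit protein (-1.15, adjusted p = 3.64e-11), ICT1, a peptidyl-tRNA hydrolase within the large subunit (-0.96, adjusted p = 1.32e-11), and DAP3, a GTP-binding protein of the small subunit (-0.33, adjusted p = 7.18e-07). CHCHD1 (-0.86), AURKAIP1 (-0.80), PTCD3 (-0.75) and MRP63 (-0.65) lay between them. Of 25 genes for assembly and rRNA modification, 20 fell and 1 rose in COMBO, with 11 lower and 2 higher in GDC and 21 lower in GSK. MPV17L2, which acts in assembly, changed by -1.49, MTERFD1 (older symbol of MTERF3) by -1.36 and FTSJ2 (older symbol of MRM2, an rRNA methyltransferase) by -1.19, while YBEY, an RNA endonuclease, rose by 0.26 (adjusted p = 0.00577).

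Of 16 translation factors and RNA-binding proteins, 14 fell and 0 rose in COMBO, with 13 lower and 1 higher in GSK. In GDC 4 of 16 fell (25%), close to the 20.0% of all tested genes. SLIRP, which stabilises mitochondrial messenger RNA, changed by -1.21, C12orf65, a release factor relative, by -1.10, and TSFM, an elongation factor, by -0.92. Of 14 genes for transcription and maintenance of mitochondrial DNA, 13 fell and 0 rose in COMBO, with 6 lower and 1 higher in GDC and 14 lower in GSK. PNPT1, an RNA-degrading enzyme, changed by -1.60, C20orf72 (older symbol of MGME1, a DNA exonuclease) by -1.57, and TFAM, which packages mitochondrial DNA and starts its transcription, by -1.39.

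Of 9 regulators of mitochondrial biogenesis, 6 fell and 1 rose in COMBO (39.2% and 43.3% of all tested genes), 8 fell and 0 rose in GSK (35.7% and 40.0%), and 3 fell and 1 rose in GDC (20.0% each). The coactivators PPARGC1B and PPRC1 changed by -1.27 and -1.22, with GSK values of -1.24 and -1.14 and GDC values of -0.11 (adjusted p = 0.341) and -0.13 (adjusted p = 0.119). GABPB1, a subunit of the ETS factor GABP, changed by -0.94 in COMBO, NRF1 by -0.69, the nuclear receptor ESRRA by -0.68 and YY1 by -0.40. GABPA, the subunit of GABP that binds DNA, was at -0.17 (adjusted p = 0.0631) and fell in GSK (-0.55). The coactivator PPARGC1A was at -0.19 (adjusted p = 0.363) and fell in GDC (-0.58, adjusted p = 0.0329). MYC rose by 0.78 in GDC (adjusted p = 1.43e-09) and by 0.20 in COMBO (adjusted p = 0.00149), and fell by 0.56 in GSK (adjusted p = 8.53e-09). No factor's binding was measured in these files.

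**Figure D5:**
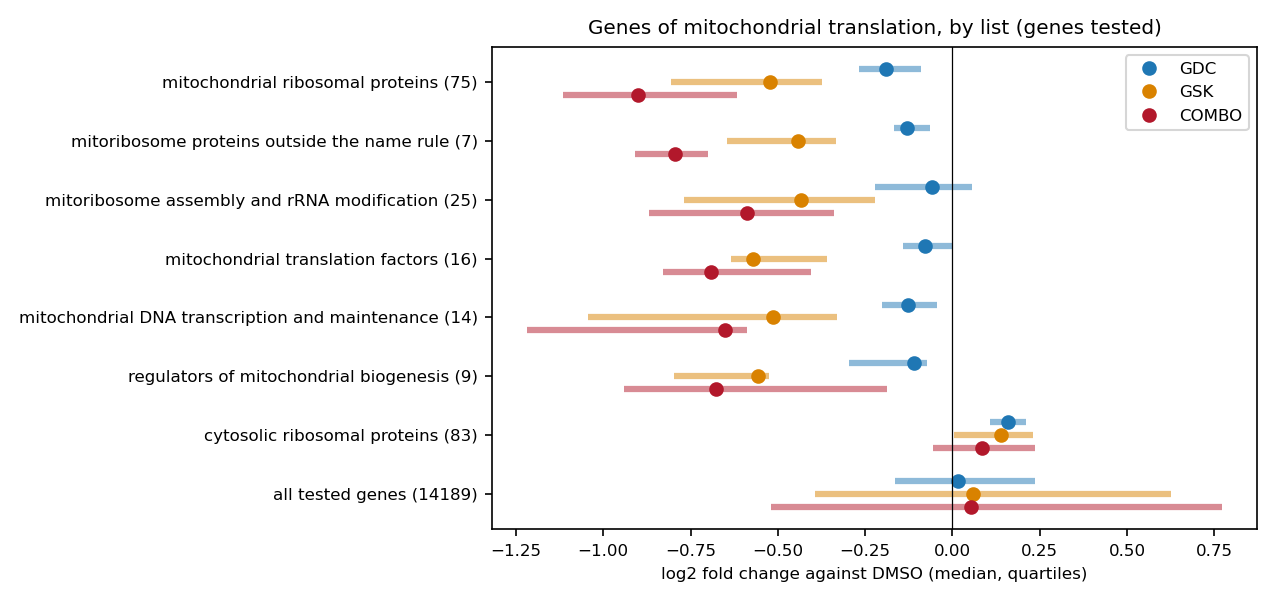
Median (points) and quartiles (bars) of the log2 fold change against DMSO for the members, 5 lists of other mitochondrial genes, cytosolic ribosomal proteins and all tested genes, with the number tested in brackets. The members have a median of -0.90 in COMBO, and the cytosolic ribosomal proteins have 0.09.

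Cytosolic ribosomal protein genes served as a comparison. Of 83 tested, 2 fell and 57 rose in GDC, 11 fell and 46 rose in GSK, and 16 fell and 38 rose in COMBO, with medians of 0.16, 0.14 and 0.09. Of all tested genes, 20.0%, 35.7% and 39.2% were called lower and 20.0%, 40.0% and 43.3% higher in these arms. The interaction was negative and past the threshold for 53 of the 83 (63.9%), against 16.5% of all tested genes, and positive for 1, against 4.86%.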

How the data were processed

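PolyA RNA-seq was analysed from 12 libraries. Per the submitters' processing notes the tools were STAR, HTSeq and DESeq2 and the build hg38 (versions, annotation and use of strand are not given in the sources used here). The counts deposited by the authors hold whole numbers of reads for each gene symbol without normalization. A deposited table normalized with DESeq2 was not used, and 0 columns of per-sample values mapped to no library. Summary lines for reads outside genes (13.7% to 23.0% of reads), ambiguous reads and reads that were not unique stayed out of library sizes and tests. Replicates differed by more than sampling noise (chi-square per degree of freedom 1.76 to 6.18).

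For the tests, edgeR 4.0.16 (quasi-likelihood, R 4.3.3) was run on the counts with TMM scaling, filterByExpr (14189 genes) and all 12 libraries in 1 fit, without covariates. The common biological coefficient of variation was 0.0499. P-values are two-sided and Benjamini-Hochberg adjusted over all tested genes. CPM used TMM-scaled library sizes. Coordinates, pseudogenes and overlaps are from GENCODE 44. Named members were the 8 called members with the most negative and the 4 with the most positive values in each arm, the 6 and 4 of the interaction, the 3 and 3 of COMBO against each single agent, members fixed by role, all genes of the lists of at most 10 genes, and the 3 with the largest called change in COMBO of each longer list. Older symbols in the files were matched through RefSeq synonyms. Members named for being uncalled, for the level per length or in the sequence windows were chosen after their values were seen. Members and lists were chosen with earlier results of these data known. The scripts were tested on simulated data. Alternatives were DESeq2 1.42.0, other scalings, filters and thresholds, fits of the compared arms, a replicate block and fits without each library.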

Additional observations from a re-analysis of the deposited data

Results flagged for a closer look

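The interaction term of edgeR, a direct test of the combined change against both single-agent changes added together, passed the threshold for 22 of 75 members (29.3%), all below the sum. Of all tested genes 16.5% were called below the sum, and of cytosolic ribosomal protein genes 63.9%. With no filter on low counts 4 members were lower and 2 higher. With a mean of at least 1 CPM 13 were lower and 2 higher. The shares of all tested genes called are not given for these settings. The named members were MRPS25 (-0.46), MRPL23 (-0.40), MRPL16 (-0.35), MRPL17 (-0.33), MRPL41 (-0.32) and MRPL22 (-0.32). MRPL17 lost its call with no filter on low counts, and MRPL41 and MRPL22 each lost theirs with no filter and in 6 of the 12 fits without a library. Of the 22 members, 8 have a named pseudogene, 6 have overlapping exons and 10 have neither.

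Reads outside genes, which enter no comparison, made up 15.6% of reads in GDC, 18.8% in GSK and 21.8% in COMBO, above the 14.2% ± 0.481 (SD, n = 3) of DMSO. Their relation to the members was not tested.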

How the results depend on the processing

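The median of the members was negative in every comparison under all alternatives run. With DESeq2 size factors in edgeR the medians were -0.23 in GDC, -0.56 in GSK and -0.089 for the interaction, with 14 members lower in the interaction. With library totals they were -0.37 in GSK, -0.69 in COMBO, -0.49 (COMBO to GDC) and -0.28 (COMBO to GSK), with 3 members higher in GSK and 1 in COMBO against GSK, and the COMBO sum was at 62.5% of DMSO. MRPL10 then turned to 0.0075 in COMBO. With no filter the medians were -0.26, -0.61, -0.95 and -0.035 in GDC, GSK, COMBO and the interaction, with 0 members higher in GDC and 4 lower and 2 higher in the interaction. With a mean of at least 1 CPM the medians were -0.60 for COMBO against GDC and -0.072 for the interaction, with 1 member higher in COMBO against GSK and 13 lower and 2 higher in the interaction. With DESeq2 the medians were -0.24, -0.56, -0.94 and -0.092, with 0 members higher in GDC and 13 lower in the interaction. Requiring a log2 fold change of 1 in size left 0 members in GDC in either direction, 2 lower in GSK, 27 in COMBO, 16 in COMBO against GDC, 0 in COMBO against GSK and 0 in the interaction. Below -1, called or not, were 54, 836, 1592, 1063, 276 and 328 of the 14189 tested genes in the same order. Without members that have a named pseudogene the medians were -0.59 in GSK, -0.95 in COMBO and -0.73 for COMBO to GDC, and without members that overlap another gene -0.94 in COMBO and -0.70 for COMBO to GDC. Leaving out members with a pseudogene or an overlap, chosen after seeing the data, left 30 tested members, of which 10 were lower in the interaction. In the main fit 16.5% of all tested genes were lower in the interaction. Shares of all tested genes called under the other settings are not given here. The causes were not tested.

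Without 1 library, the lower counts were 43 to 53 in GDC, 66 to 69 in GSK, 75 to 75 in COMBO, 73 to 75 (COMBO to GDC), 49 to 61 (COMBO to GSK) and 5 to 21 for the interaction. With all libraries, 20.0%, 35.7%, 39.2%, 38.0%, 26.9% and 16.5% of all tested genes were called lower, in the same order. These shares are not given for the fits without a library. Each of those fits repeated the filter and the scaling. With all libraries the lower counts were 63 for COMBO against GSK and 22 for the interaction, above both ranges. Higher counts were 0 to 1 in GDC, 0 to 1 for COMBO against GSK and 0 to 2 for the interaction. Medians ran from -0.27 to -0.20, -0.58 to -0.52, -0.94 to -0.88, -0.68 to -0.63, -0.33 to -0.29 and -0.15 to -0.040 in the same order. With all libraries the GDC median was -0.19, outside its range. The bacterial minus mitochondria-only difference of medians ran from -0.10 to -0.053, -0.11 to -0.048, -0.23 to -0.16, -0.20 to -0.11, -0.12 to -0.068 and -0.069 to 0.0059. With the replicate block, lower counts were 43, 66, 75, 75, 62 and 21. Deviations of libraries with the same letter correlated at r from -0.084 to 0.19, and those with different letters at -0.15 to 0.10. Between GDC and COMBO the same-letter values were 0.12, 0.19 and 0.073, and the others -0.15 to 0.045. Because not every same-letter pair was over 0.1, the letters were not taken to pair libraries. That rule is not a test of pairing.

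For single named genes, 1807 values kept their direction and side of the threshold, 101 lost the call, 19 gained it and 1 reversed. MRPS24 had at most 5 counts in an arm, too few to compare, and why was not tested.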
